A study of Mus musculus with 12 samples.

Results

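The large histone gene cluster of mouse chromosome 13 encloses one of the genome's clusters of vomeronasal type 1 receptor (Vmn1r) genes, and the mark H3K9me3 was described here along the stretch from 20 to 27 Mb (mm10) that holds both. The members are the regions of the authors' deposited table whose start lies in that stretch, 259 of 68291 regions in all. The stretch was proposed because its fold changes were known to stand out, so the fold changes below are a description and none of them was tested against chance.

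The values come from chromatin immunoprecipitation followed by sequencing (ChIP-seq) of H3K9me3 in mouse embryonic stem cells of the genotypes Tex19.1-/- (knockout) and Tex19.1+/- (heterozygous), both derived from the E14Tg2a line, at passages 12 to 20. Each genotype has 3 immunoprecipitated (IP) and 3 input libraries, 12 in all, and the genotype field of the labels goes against the title in 6 of them, so that the groups rest on the titles. All 12 libraries have the same strain background in their labels, a strain whose name ends in Ola and is not given in full here. The labels do not tell separate cultures or clones from repeat libraries within a genotype. The deposited table gives per region only a log2 fold change between genotypes, an average log2 CPM (CPM being read counts divided by library size and scaled), a p-value and its adjusted form (FDR), and no library has values of its own. Which genotype served as the reference is not given in the sources used here, so changes are given by their sign, and a positive value may be higher in either genotype. Nor do they give whether input was used. A difference in H3K9me3 per copy of the DNA and a difference in the number of copies cannot be told apart in such a table.

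H3K9me3, trimethylation of lysine 9 of histone H3, is a mark of heterochromatin found at silenced repeats, imprinted alleles and many clustered gene families. The replication-dependent histone genes are short genes without introns that are transcribed strongly in S phase and supply the core and linker histones for new chromatin. The Vmn1r genes encode pheromone receptors of sensory neurons in the vomeronasal organ, where each neuron expresses few of them. Tex19.1, present only in mammals, is expressed in the germline and in pluripotent cells, and its loss affects the control of retrotransposons.

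Promoters that lie under a region are shown first, since they are the sequences of the stretch that the mark covered at a gene start. Of 161 RefSeq promoters of 150 genes in the stretch (250 bases before to 50 after each gene's start, GRCm38.p6, the assembly that mm10 names), 5 were overlapped by a region, each over its full 300 bases, and 156 were not. The same share over all promoters of the annotation was not computed, so 5 is not read as few or many. All 5 are given 5′ to 3′ on the plus strand, with each CG dinucleotide in capitals.
Cmah: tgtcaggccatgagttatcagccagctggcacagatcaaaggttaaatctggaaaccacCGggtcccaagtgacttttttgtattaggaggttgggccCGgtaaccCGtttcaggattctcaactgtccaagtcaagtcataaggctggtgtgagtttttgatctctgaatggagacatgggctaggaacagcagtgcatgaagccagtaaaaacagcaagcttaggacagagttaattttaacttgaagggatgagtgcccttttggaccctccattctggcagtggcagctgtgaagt
4933404K08Rik: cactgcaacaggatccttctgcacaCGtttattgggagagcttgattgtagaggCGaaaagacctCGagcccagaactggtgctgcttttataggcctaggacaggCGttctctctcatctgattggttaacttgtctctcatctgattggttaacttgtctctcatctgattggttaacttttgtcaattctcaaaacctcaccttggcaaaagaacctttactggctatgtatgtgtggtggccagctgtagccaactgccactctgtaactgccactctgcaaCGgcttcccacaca
Gm52042: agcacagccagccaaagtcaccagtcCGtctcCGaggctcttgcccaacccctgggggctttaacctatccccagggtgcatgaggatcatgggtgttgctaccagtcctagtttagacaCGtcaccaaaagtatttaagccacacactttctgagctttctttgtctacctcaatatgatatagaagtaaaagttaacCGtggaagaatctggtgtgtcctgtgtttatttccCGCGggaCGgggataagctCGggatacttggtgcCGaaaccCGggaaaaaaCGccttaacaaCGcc
Vmn1r215: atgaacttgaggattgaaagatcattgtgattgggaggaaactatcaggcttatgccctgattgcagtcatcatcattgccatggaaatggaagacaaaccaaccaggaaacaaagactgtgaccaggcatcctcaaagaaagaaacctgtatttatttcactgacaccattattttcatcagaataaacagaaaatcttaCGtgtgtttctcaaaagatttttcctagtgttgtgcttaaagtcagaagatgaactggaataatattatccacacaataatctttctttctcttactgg
Gm11295: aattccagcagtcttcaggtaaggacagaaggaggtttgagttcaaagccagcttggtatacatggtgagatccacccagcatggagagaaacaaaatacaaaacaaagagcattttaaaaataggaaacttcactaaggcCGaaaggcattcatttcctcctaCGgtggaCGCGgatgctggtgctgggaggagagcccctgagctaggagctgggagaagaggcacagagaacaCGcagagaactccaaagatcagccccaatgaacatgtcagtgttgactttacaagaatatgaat

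The Cmah promoter (chr13:24327154-24327453) lies under the region with the highest log2 fold change among regions of the stretch with at least 16 CPM, 1.08 ± 0.23 (authors' FDR 0.00339; ± gives a standard error derived from the deposited p-value throughout) in the authors' deposited table. Cmah encodes the hydroxylase that makes the sialic acid Neu5Gc. The promoter of 4933404K08Rik (chr13:23278100-23278399) lies under a region at 0.50 ± 0.13 (authors' FDR 0.0356), and that of Gm52042 (chr13:25007466-25007765) under a region at 0.63 ± 0.19 (authors' FDR 0.145) in the authors' deposited table. The Vmn1r215 promoter (chr13:23075542-23075841), the sole Vmn1r promoter under a region, had 0.29 ± 0.18 (authors' FDR 1). The promoter of Gm11295 (chr13:22282091-22282390) had 0.07 ± 0.19 (authors' FDR 1) in the authors' deposited table. It is the one of the 5 that lies outside the shifted segment described below.

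These promoters held 1 to 12 CG dinucleotides, with 3 at Cmah, 5 each at 4933404K08Rik and Gm11295, 12 at Gm52042 and 1 at Vmn1r215. The CG dinucleotide reads the same on both strands, and 94.6% of the 32851 promoters in the RefSeq table hold at least 1, with a median of 7. Among the promoters of the stretch, the 33 of Vmn1r genes had a median of 1 CG and the 51 of histone genes a median of 10. No histone promoter was overlapped by a region, and 1 Vmn1r promoter was. With 5 of the 161 promoters of the stretch overlapped, these counts are too small to set the classes apart. In the 4933404K08Rik promoter the run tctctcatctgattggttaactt, 23 bases long, occurs 3 times, a run found at least once on this strand in 8 of the 32851 promoters.

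Of the 259 regions, 215 had a positive log2 fold change (83.0%, 95% exact binomial interval 77.9 to 87.4), against 49.2% of all regions of the table. Their median was 0.42, a ratio of 1.34, and the quartiles were 0.16 and 0.64. On chromosome 13 outside the stretch, the median of 3409 regions was -0.03 and 1582 were positive. By the authors' FDR below 0.05, 18 regions of the stretch were called, all positive, against a background of 0.192% of all regions called positive and 0.0893% called negative. The stretch holds 0.379% of the regions and 13.7% of the positive calls. Because the stretch was chosen on these values, nothing is read from that difference. The binomial interval takes regions as independent, although neighbouring ones are not.

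The positive values did not fill the stretch. They began inside the Vmn1r cluster and ended in a gene desert. Unbroken runs of at least 10 neighbouring positive regions occurred 5 times in the stretch, and the span from the first region of these runs to the last (chromosome 13, 22398668 to 26162946, 3.76 Mb) is called the shifted segment here. It was drawn from the values. It held 176 regions, of which 169 were positive, with a median of 0.53, a ratio of 1.44. No interval is given for that median, since neighbouring regions are not independent and the segment was drawn from the values. The 7 regions at or below 0 ranged from -0.31 to -0.0037, and the strongest of them had 11.6 CPM. The 62 regions of the stretch before the segment had a median of 0.07, and the 21 after it -0.03. All 18 called regions lay in the segment.

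**Figure D1:**
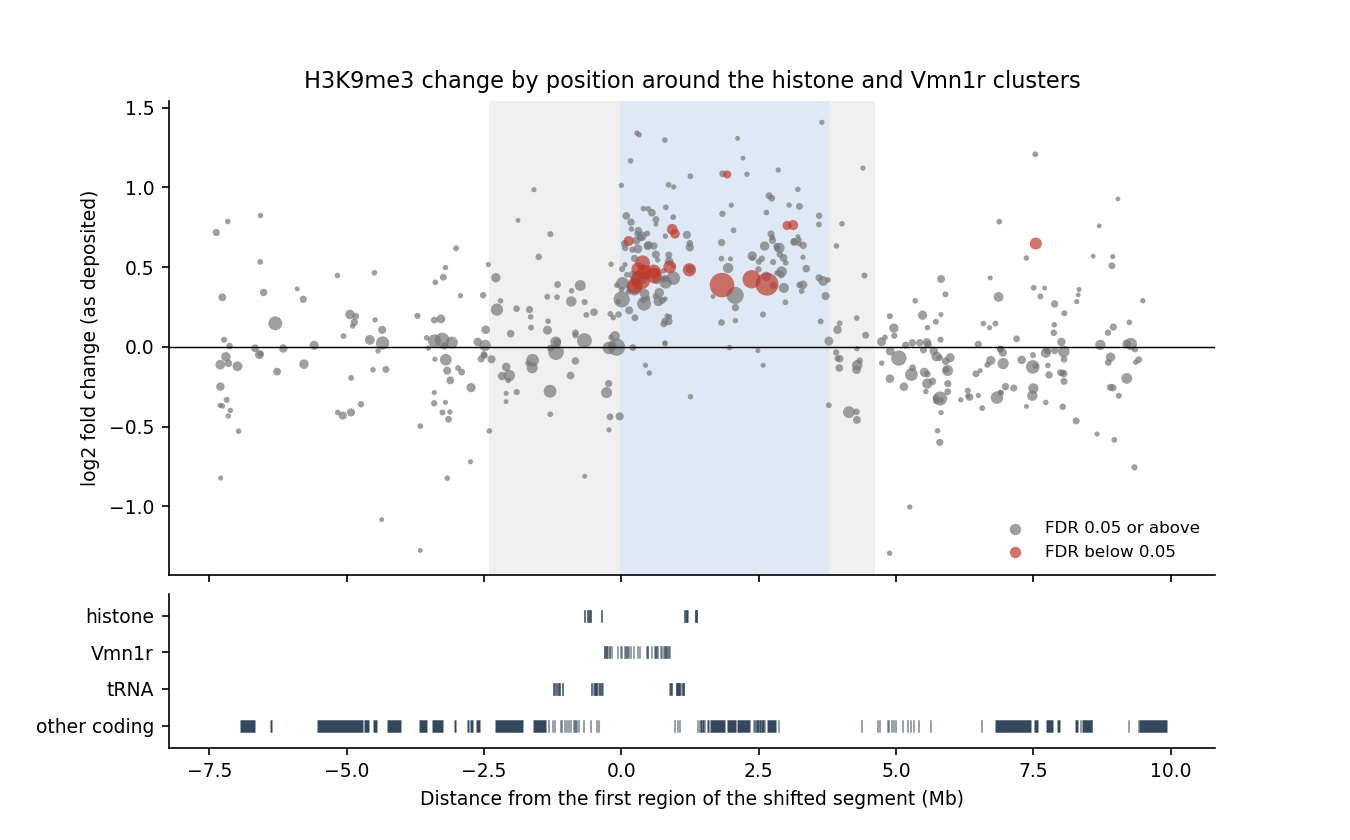
Deposited log2 fold change of each region of chromosome 13 (1 point a region, area growing with CPM) against its distance from the first region of the shifted segment, with gene positions below. The blue band is the segment, where 169 of 176 regions lie above 0, and the grey bands are the rest of the stretch.

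The lower border fell among the Vmn1r genes. Since the segment was drawn to begin and end with long positive runs, a step at each border and the sign of the regions beside it inside are fixed by its definition. The first 16 regions of the segment had a median of 0.57 and were all positive. The 16 regions before it (from 22127664) had a median of 0.03, with 9 positive. The strong regions beside the border are given for their size. In the authors' deposited table the region at 22404100 to 22407874, with 94.3 CPM, had 0.30 ± 0.10, and the next strong one, at 22416031 to 22419857, had 0.40 ± 0.13. Further inside, those at 22529972 to 22532554 and 22540472 to 22541535 had 0.66 ± 0.17 and 0.23 ± 0.23. On the other side the nearest strong region, at 22368215 to 22369371 with 18.9 CPM, had -0.44 ± 0.23. The region at 22306852 to 22314490, with 110 CPM, had -0.00079 ± 0.09. Before that, the regions at 22282029 to 22284181 and 22236128 to 22237600 had 0.07 and 0.009. The region at 22170073 to 22174801 had -0.0064 and the one at 22127664 to 22131159 had -0.29. Of all these, only the region at 22529972 was called (authors' FDR 0.0325). The derived standard error behind each ± is the absolute log2 fold change over the normal deviate of its deposited p-value, or the median of regions of like signal where that deviate is below 1. It holds whatever spread the authors' test held and does not measure the spread between libraries.

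The upper border fell where the annotation has no protein-coding gene nearby. The last 16 regions of the segment, from 25636534, had a median of 0.46 and were all positive, and the 16 after it had a median of -0.05, with 6 positive. In windows of 0.5 Mb the median was 0.66 from 25.5 to 26 Mb (17 of 17 regions positive), 0.15 from 26 to 26.5 Mb (10 of 15) and -0.09 from 26.5 to 27 Mb (4 of 11). At the ends of the stretch the values had both signs. The last 2 regions inside had 0.45 and 0.07 and the 2 just outside 0.03 and -0.10. At the lower end the first 2 inside had -0.08 and 0.43 and the 2 just outside -0.53 and 0.52, the last 2 from regions under 6 CPM.

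Within the segment, medians of 0.5-Mb windows kept to a narrow band. They were 0.48 from 22.5 to 23 Mb, 0.46 from 23 to 23.5 Mb, 0.62 from 23.5 to 24 Mb and 0.52 from 24 to 24.5 Mb, then 0.54, 0.60 and 0.66 in the 3 windows up to 26 Mb. The 35 regions from 23 to 23.5 Mb and the 43 from 25 to 26 Mb were all positive. Of 2422 windows of 1 Mb with at least 8 regions in the table, those from 22, 23, 24 and 25 Mb ranked 25, 14, 6 and 3 by median. Chromosomes 11 and 16 held many of the windows ranked above them. With those chromosomes left out, they ranked 6, 4, 3 and 2 of 2224. Both rankings use the values on which the stretch was chosen, so nothing is read from them. The longest unbroken positive run in the segment had 48 regions and the next 45. Chromosome 16 held a longer one of 71 regions and chromosome 11 one of 53, and both chromosomes held further runs of 30 or more. Elsewhere on chromosome 13 the longest had 13, and on the chromosomes other than 11, 13 and 16 it had 29.

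The 59 regions of the segment with at least 16 CPM differed among themselves no more than their derived errors. They had a standard deviation of 0.16 in log2 fold change, and the root mean square of their derived standard errors was 0.17. Of these, 58 lay within 2 derived standard errors of the error-weighted mean of 0.45, a ratio of 1.37. The one beyond it was the Cmah promoter region at 1.08. All regions of this strength were positive, from 0.16 upwards. Over the whole stretch, which mixes segment and flanks, the standard deviation was 0.31 against a root mean square error of 0.18. From 22 to 26 Mb, the 63 such regions had 0.24 against 0.17, so the smaller spread belongs to the segment as drawn. The 914 such regions on chromosome 13 outside the stretch had a standard deviation of 0.18, an error of 0.18 and a weighted mean of -0.07. The segment's weighted mean was 0.52 above that, a ratio of 1.44. No error is given for these means, since regions of the same libraries are not independent and the segment was drawn from these values.

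Medians in the segment were positive in every class of signal. Since the segment was drawn from runs of positive values, that sign is largely fixed by its definition. The sizes are given for comparison. From the weakest to the strongest class, medians in the segment were 0.51 below a log2 CPM of 2 (22 regions), 0.58 from 2 to 3 (50), 0.62 from 3 to 4 (45), 0.51 from 4 to 5 (30), 0.48 from 5 to 6 (15) and 0.41 above 6 (14). Outside the stretch and chromosomes 11 and 16, the medians of the same classes were 0.03, 0.02, -0.02, -0.05, -0.07 and -0.10. The differences were 0.48, 0.57, 0.65, 0.56, 0.56 and 0.50, which is no steady trend. Calls depended on signal. Of the 14 segment regions above a log2 CPM of 6, all had positive values and 9 were called. Of the 117 below a log2 CPM of 4, none was called by the authors' FDR. In all, 81 segment regions had an unadjusted p below 0.05 and a positive value, against 2.7% of all regions.

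**Figure D2:**
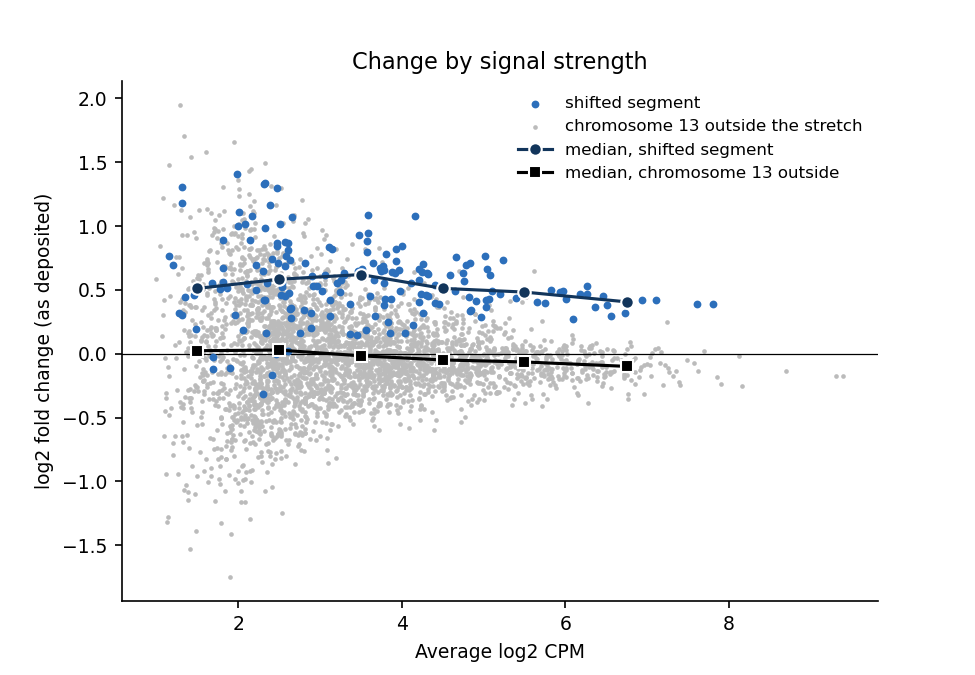
Deposited log2 fold change against average log2 CPM for the shifted segment and for chromosome 13 outside the stretch, 1 point a region. Lines join the medians of each signal class, which lie between 0.41 and 0.62 in the segment and between -0.10 and 0.03 outside the stretch.

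Few of the regions of the stretch lay at histone genes. The share of all annotated genes with a region within 5 kb was not computed, so no depletion at histone genes is read from the counts. RefSeq places 55 histone genes taken by symbol in the stretch, in a pair of groups on either side of the Vmn1r cluster. The first, of 23 genes (21715711 to 22043658), lies before the segment, and the second, of 32 genes (23531044 to 23934913), lies inside it. A region came within 5 kb of 4 of the 55 genes, and 1 gene body, that of H2bc6, an H2B gene, was overlapped. The 4 regions near histone genes had values of 0.04, 0.28, -0.81 and 0.70. The first 3 lay near H2ac14, H2bc14 and H4c11, genes for H2A, H2B and H4, before the segment. The strongest of them (21724444 to 21730152), with 78.5 CPM, had 0.04 ± 0.11 (authors' FDR 1) in the authors' deposited table. The H2bc6 region (23591930 to 23592994) had 0.70 ± 0.22 (authors' FDR 0.246). None of the 4 was called. The symbol H4bc24, in the first group, was missed by the pattern and had no region within 5 kb.

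Between the first and last gene of the second histone group lay 7 regions, covering 2.70% of it, and 6 were positive with a median of 0.62. Of the 7, 6 formed a patch from 23636024 to 23657635, between H1f4, a linker histone gene, and H2ac6. Its strongest region (23636024 to 23640580, 61.4 CPM), 13466 bp from H1f4, was called at 0.48 ± 0.12 (authors' FDR 0.0283) in the authors' deposited table. Its weakest, with 4.94 CPM, had -0.31 ± 0.54. On either side were spans without any region. One of 410 kb (23657636 to 24067588), the longest in the stretch, held 16 histone genes, Hfe, an iron regulator mutated in haemochromatosis, and the phosphate transporter genes of the Slc17a family. Another of 216 kb (23376094 to 23591929) held 14 histone and 36 tRNA genes. In the first group, 5 histone and 26 tRNA genes lay in a span of 226 kb (21901661 to 22127663) without a region.

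The Vmn1r cluster (22057168 to 23269501) was dense in regions. It held 101 regions, or 8.33 per 100 kb, and they covered 12.3% of it. The whole stretch had 3.70 per 100 kb and 5.13%. Of 75 Vmn1r genes, 36 of them protein-coding and 39 pseudogenes, 36 had a region within 5 kb and 5 had one in the gene body. The 42 regions within 5 kb had a median of 0.43, and 37 were positive. Position split them. The 36 in the segment were all positive, from 0.02 to 1.33, with a median of 0.45. The 6 before it ranged from -0.52 to 0.07, with a median of -0.36 and 1 positive. Those 6 lay near Vmn1r191, Vmn1r192, Vmn1r195 and the pseudogenes Vmn1r-ps95, Vmn1r-ps96, Vmn1r-ps99 and Vmn1r-ps101. Their low median depends on the 5 kb limit. All 16 regions from 22127664 up to the segment, at any distance from a Vmn1r gene, had a median of 0.03, with 9 positive. Regions near coding genes and near pseudogenes had medians of 0.35 (19 regions) and 0.43 (29 regions), some being counted in both.

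Vmn1r genes elsewhere in the genome did not share the positive values. The 107 regions within 5 kb of them had a median of -0.07, with 42 positive and 1 call, which was negative. By chromosome the medians were -0.07 on chromosome 6 (46 regions), -0.09 on chromosome 7 (48) and -0.05 on chromosome 17 (8). Their median signal of 13.2 CPM was close to the 13.7 CPM in the stretch. The difference between these loci was not tested, since the stretch was chosen on it.

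**Figure D3:**
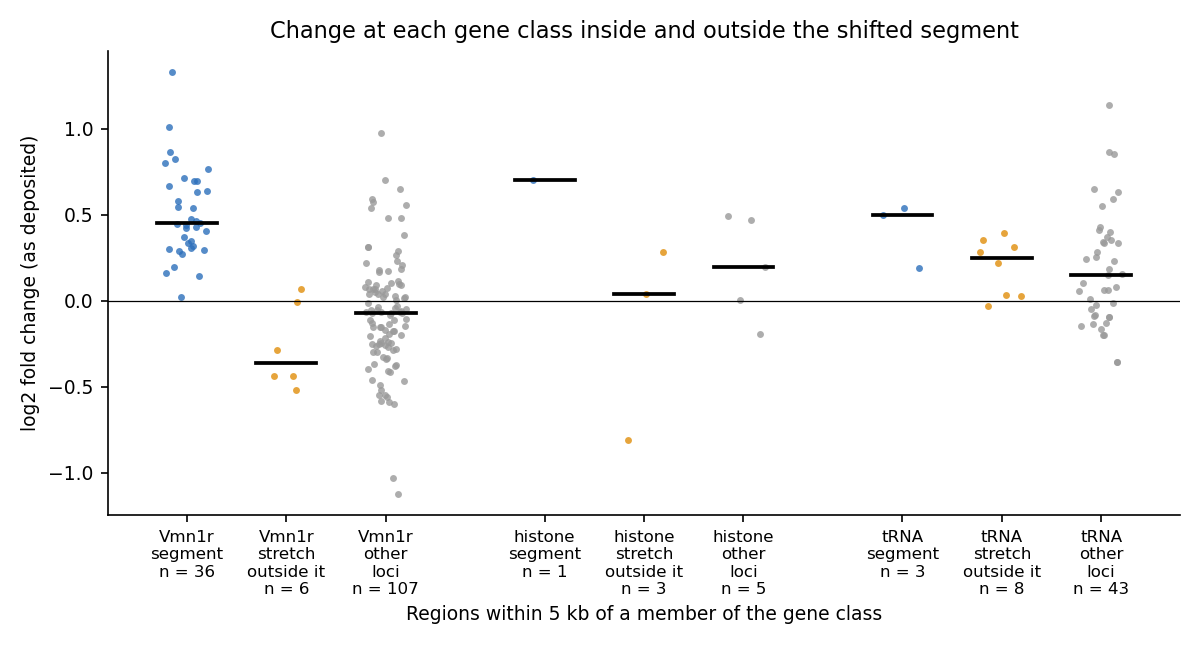
Deposited log2 fold change of regions within 5 kb of Vmn1r, histone and tRNA genes, in the shifted segment, in the rest of the stretch and at other loci of the genome. Bars are medians, 0.45, -0.36 and -0.07 for Vmn1r genes from left to right. The segment was drawn from positive runs of these values, so its difference from the other groups was not tested.

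Of the 18 calls, 8 lay among the Vmn1r genes from 22.5 to 23 Mb, a window with 48 of the 176 segment regions. The median signal of its regions was 15.6 CPM, against 11.3 CPM in the segment, and calls depended on signal. In that window the region of highest CPM (22747810 to 22754119, 138 CPM) had 0.42 ± 0.08 (authors' FDR 0.000278) in the authors' deposited table. It lies 18280 bp from Vmn1r208. A region 11194 bp from the same gene (22784519 to 22789980) had 0.53 ± 0.11 (authors' FDR 0.00119). The region over the pseudogene Vmn1r-ps123 (22993289 to 22998174), with 88.2 CPM, had 0.45 ± 0.10 (authors' FDR 0.00606) in the authors' deposited table. The region 4986 bp from Vmn1r203 (22529972 to 22532554) had 0.66 ± 0.17 (authors' FDR 0.0325). Further calls lay nearest to Vmn1r206 (0.38), Vmn1r207 (0.49), Vmn1r210 (0.47) and Vmn1r213 (0.47), at 8292 to 22759 bp. Of all 18 called regions, 2 came within 5 kb of a Vmn1r gene, 6 overlapped a gene of any kind and 10 had no gene within 5 kb. Among all 176 segment regions, 36 came within 5 kb of a Vmn1r gene and 128 overlapped no gene. Whether calls differ from the other segment regions in their placement was not tested.

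Few regions of the stretch lay near its other gene families, again with no share over all annotated genes to set beside the counts. Transfer RNA genes, of which the stretch holds 104, had a region within 5 kb at 10. Those 11 regions had a median of 0.29, and 10 were positive. The 8 before the segment had a median of 0.25 and the 3 inside it 0.50, while 43 regions near tRNA genes elsewhere had 0.15. The strongest (21208125 to 21213230, 86.3 CPM), before the segment, had -0.03 with an FDR of 1, and the called region at 4933404K08Rik is also within 5 kb of tRNA genes. Of 8 zinc finger genes, 2 had regions, 3 in all. In the authors' deposited table the strongest, 1065 bp from Zkscan4 (21486572 to 21489164), had 0.29 ± 0.16 (authors' FDR 1). Of 13 olfactory receptor genes, 2 had regions, the stronger of them, 4832 bp from Olfr1361 (21649921 to 21653536), at 0.39 ± 0.15 (authors' FDR 0.678). No region lay within 5 kb of the 2 butyrophilin, 4 Slc17a and 2 Trim genes, and the stretch holds no gene of the prolactin family.

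Of 29 other protein-coding genes, 12 had a region within 5 kb, 9 of the 18 in the segment, 3 of the 10 before it and 0 of the 1 after it. Carmil1, a regulator of actin capping, held the strongest and widest region of the stretch (24225214 to 24237409, 12196 bp, 224 CPM), which had 0.39 ± 0.06 (authors' FDR 2.02e-06) by the authors' table as deposited. All 7 of its regions were positive, from 0.15 to 1.09. Cmah had 9 regions with a median of 0.49, and 8 were positive. Besides its promoter, a strong region near its far end (24467786 to 24473401, 106 CPM) had 0.32 ± 0.09 (authors' FDR 0.098). The 2 regions of Cmah differed by more than either error, but the pair was picked after its values were seen.

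Dcdc2a, a doublecortin-domain gene, had 8 regions, all positive, from 0.39 to 0.95. The strong one at its edge (25046198 to 25054875, 195 CPM), 398 bp from the gene body, had 0.39 ± 0.07 (authors' FDR 1.13e-05) in the authors' deposited table. Its other 7 had 5.93 to 13.8 CPM and were not called. Ripor2 had 3 weak regions under 5 CPM at 1.08, 1.18 and 1.31, with derived standard errors of 0.55 to 1.18. A region 5602 bp from Gmnn, which encodes the replication licensing inhibitor geminin (24767539 to 24774239, 123 CPM), had 0.42 ± 0.09 (authors' FDR 0.000926) in the authors' deposited table. The Gmnn body itself had no region within 5 kb. In the gene desert after Nrsn1, a neuronal vesicle gene, the called regions lay 144211 and 254258 bp away and had 0.76 each, with FDRs of 0.0268 and 0.00543 in the authors' deposited table. Between the Vmn1r cluster and the second histone group, called regions in the noncoding gene 4930586N03Rik, beside Zfp322a, had 0.74 (23323882 to 23326423, authors' FDR 0.00311) and 0.71 (23374381 to 23376093, authors' FDR 0.0384).

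**Figure D4:**
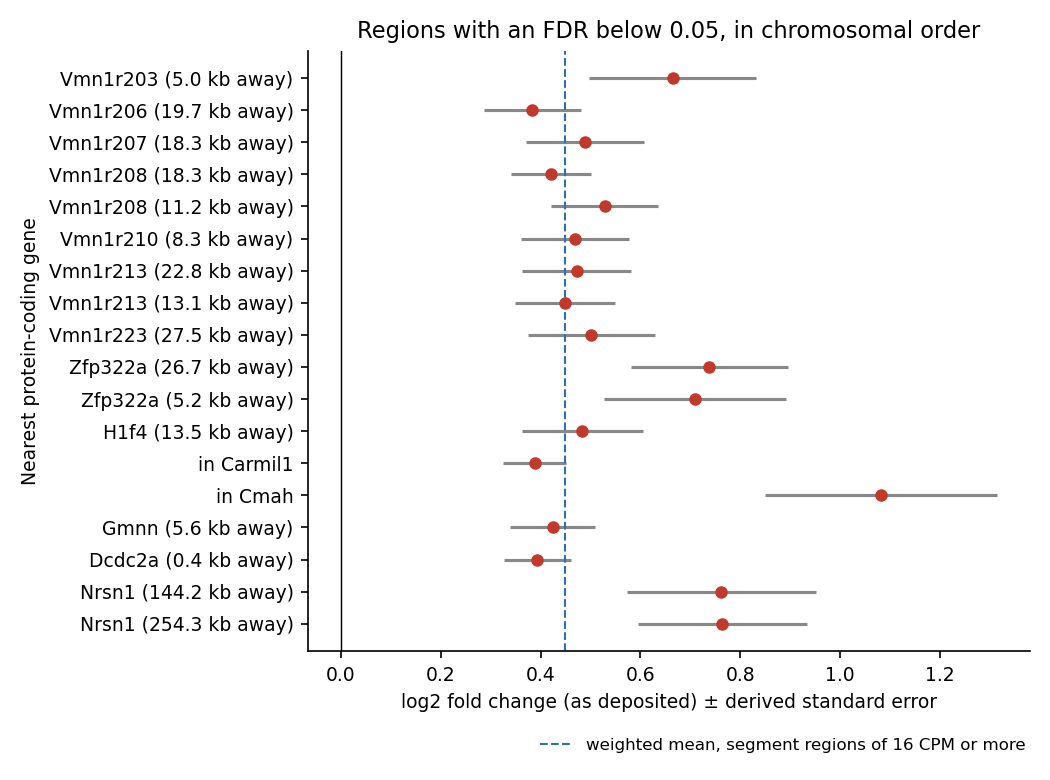
The 18 called regions in chromosomal order, with the deposited log2 fold change, its derived standard error as bars, and the nearest protein-coding gene. The dashed line is the weighted mean of 0.45 of the segment, and the Cmah promoter region at 1.08 is the farthest from it.

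Before the segment, Elmo1, an engulfment adaptor, had 13 regions within 5 kb with a median of -0.13, of which 6 were positive. They ranged from -0.34 to 0.79. Aoah, which degrades bacterial lipopolysaccharide, had 2, at 0.99 and 0.56, both under 10 CPM and not called. The lowest values among strong regions all lay outside the segment, which follows largely from its drawing by positive runs. They were -0.46 (26685732 to 26687389) and -0.41 (26539674 to 26542147) after it, and -0.44 (22368215 to 22369371), -0.29 (22127664 to 22131159) and -0.28 (21099971 to 21103372) before it. None of these 5 was called, with FDRs of 0.366 to 1 in the authors' deposited table.

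Regions of the segment had somewhat more signal than those outside the stretch. Their median width was 818 bp and median signal 11.3 CPM, against 779 bp and 8.55 CPM on chromosome 13 outside the stretch. Signal over covered length was 15.4 CPM per kb in the segment, against 12.8 in the stretch before it, 13.96 in the stretch after it and 13.5 on chromosome 13 outside the stretch. The part of signal in the change was not tested. By annotation, 36 segment regions overlapped a protein-coding gene, with a median of 0.55, and 12 overlapped another gene, with 0.50. The other 128, or 72.7%, lay between genes, with a median of 0.50. Of the 18 calls, 12 lay between genes.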

How the data were processed

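The authors deposited 1 table over 68291 regions with, per the file headers, a log2 fold change and an average log2 CPM (log2 scale), a p-value and an FDR, and 0 columns of single libraries, so neither library depth nor replicate spread could be computed. Named, per the submitters' processing notes, are Bowtie2 2.2.6, HOMER 4.8, bedtools 2.25.0, edgeR and mm10, with no role or order. The deposited FDR matched Benjamini-Hochberg values recomputed from the p-values to within 3.2e-05, and a region is called when it is below 0.05. The planned count test needed values per library, so values are described. Derived standard errors used the region's own p-value in 19017 regions. Regions were set against gene bodies of RefSeq GRCm38.p6 (49997 genes), extended by 5 kb; exons, introns and repeats were not used here. Calculations ran in Python 3.11.15 with pandas 2.3.3 and scipy 1.17.1. The code was run on simulated data with independent regions and no segment drawn from the values. Derived errors return the simulated ones there by construction, so that run says nothing about the real data. Members and gene lists were chosen with earlier results of these data known. Named regions are every called one, the 5 highest and 5 lowest log2 fold changes with at least 16 CPM, the 5 of highest CPM, the 3 widest, the strongest near each gene class and 2 on each side of each border; others named, among them those at the segment's borders, histone genes and other coding genes, were chosen after their values were seen. Coordinates are as the table gives them.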

Additional observations from a re-analysis of the deposited data

How the results depend on the processing

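The median of the stretch (0.42) stayed between 0.39 and 0.45 with at least 16 CPM, at least 1000 bp, the chromosome 13 or like-signal median subtracted, weighting by width, or without regions near Vmn1r genes, the last added after seeing the data. The share positive stayed between 80.7% and 84.2%. The median from 22 to 26 Mb (0.49) was 0.45 with at least 16 CPM, 0.44 weighted by width, and 0.47 to 0.53 otherwise. The 18 calls became 10 at an FDR below 0.01, 8 with a log2 fold change of at least 0.5 as well, and 24 when regions under 1000 bp were left out of the adjustment. Under Holm adjustment, added after seeing the data, 4 were left, near Vmn1r208, in Carmil1 and near Gmnn and Dcdc2a. The median near Vmn1r genes (0.43) was 0.30 in gene bodies alone, with 6 regions, and the cause was not tested. The histone median (0.16, 4 regions) was 0.70 in gene bodies, with 1 region. Within 10 kb the zinc finger median (0.29) was 0.43 and the olfactory receptor median (0.19) was 0.088, with 7 regions each. All class medians kept their sign. The spread among regions was 0.31 at 16 CPM and 0.28 at 32 CPM. No paired analysis was possible because the table has no values of single libraries, which also bars leaving out a library. Where log2 CPM was under 4, the segment had 117 regions and no call by the authors' FDR, but 1 in Carmil1 among the 24 above, and the size of change that could be called there was not computed.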
